A study of Homo sapiens with 16 samples.

Results

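The replication-dependent histone genes of human mesenchymal stem cells (MSCs) are described here in 4 groups of cultures. They were taken as the protein-coding genes with a GENCODE symbol of the forms H1-1 to H1-6, H2AC, H2BC, H3C or H4C followed by a number. Of 69 such symbols, 67 were matched to a gene in the deposited count table, among 60649 gene identifiers, and H2AC18 and H2AC19 were not analysed here. The members compared were then selected on their counts: 41 of the 67 genes held at least 10 counts in at least 4 of the 16 libraries. They were 3 H1 genes of 6, 8 H2A genes of 15, 13 H2B genes of 18, 8 H3 genes of 13 and 9 H4 genes of 15. The test across all genes, which has its own filter on low counts, included 40 of the 41 members among 19103 genes and left out H3C13.

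Replication-dependent histone genes encode the bulk of the core histones H2A, H2B, H3 and H4, which form the nucleosome, and of the linker histones H1, which bind the DNA between nucleosomes. Their transcription is coupled to DNA synthesis in S phase, and their mRNAs are the only known cellular mRNAs of animals that end in a conserved stem-loop in place of a poly(A) tail. The stem-loop binds the protein SLBP, and a cut behind it, guided by the U7 small nuclear RNA, forms the end of the mRNA. Some of these genes also give rise to polyadenylated transcripts, which have been described in cells that have left the cycle, and poly(A) selection recovers these more readily than the stem-loop form.

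The cells were ASC52telo, an immortalized line of human MSCs from adipose tissue. All cultures came from this single line. The groups were MmC-/GDF11- ("young" MSCs), MmC-/GDF11+ (young MSCs given growth differentiation factor 11), MmC+/GDF11- (senescent MSCs) and MmC+/GDF11+ (senescent MSCs given GDF11), with 4 libraries each. Mitomycin C (MmC), which alkylates DNA, was applied at 1.5 µg/mL for 18 h to make cells senescent, and the cytokine GDF11 was added at 10 ng/mL over the next 10 days. Cells of all 4 groups were collected after these 10 days, so no culture was measured before MmC. In what follows, "before" and "after" MmC stand for the separate MmC- and MmC+ groups. Poly(A) RNA was sequenced, and reads were counted per gene by the authors. Gene counts do not tell transcripts that end at the stem-loop from polyadenylated ones.

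The stem-loop was searched in the reference sequence, because it is the feature that sets these genes apart from other genes. All 67 members held it within 150 bases after the stop codon, at a distance of 22 to 62 bases (median 35), whereas 3 of 19850 other protein-coding genes did (0.015%), the histone genes H2AX, H3-4 and H3-7, whose symbols fall outside the rule. The motif was 2 stems of 6 bases around a loop of 4 bases, read on the gene's strand. Among the 67 genes it occurred in 10 versions, and the 4 most frequent are shown with the stems in capitals, followed by those of H2AC11 and H2AC20.
Most frequent version, in 38 H1, H2A, H2B and H3 genes: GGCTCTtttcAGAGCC
Version of 9 H1, H2A, H2B and H3 genes: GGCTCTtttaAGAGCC
Most frequent version in H4, in 10 genes: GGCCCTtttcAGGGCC
Version of 4 H4 genes: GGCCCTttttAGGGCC
H2AC11: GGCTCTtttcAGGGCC
H2AC20: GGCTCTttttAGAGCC
The H4 genes carried stems with 1 more C on the left and 1 more G on the right than the most frequent version of the other types. H2AC11 had the left stem of the other types and the right stem of H4, and no other member had this combination. The first version stands, for example, in H1-2 at chr6:26055744-26055759 (minus strand, hg38) and in H2AC6 at chr6:26124669-26124684 (plus strand). H2BC12 held the second version at chr6:27146366-27146381, and H4C8 the third at chr6:26285131-26285146 (both on the minus strand). Of the members described below as lower after MmC, H3C3, H2AC16 and H3C12 carried the first version, as H1-2, which rose, did. H2AC20, also lower after MmC, had a version that no other member had.

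The promoters of 62 members were found in the RefSeq promoter table of GRCh38.p14, which gives 250 bases before and 50 bases after each start. CCAAT, searched on both strands, was present in 83.9% of them and in 34.61% of all 35116 promoters of the same length. TATAAA was present in 64.5% against 11.53%, and the octamer ATGCAAAT in 41.9% against 1.77%. These are matches of letters and not binding sites. Promoters of 2 members are shown, with these 3 motifs in capitals in either direction, because H2AC6 was among the members with the highest level and because H2AC20 shares its promoter region with H2BC21, which changed in the other direction.
H2AC6, chr6:26123922-26124221, plus strand: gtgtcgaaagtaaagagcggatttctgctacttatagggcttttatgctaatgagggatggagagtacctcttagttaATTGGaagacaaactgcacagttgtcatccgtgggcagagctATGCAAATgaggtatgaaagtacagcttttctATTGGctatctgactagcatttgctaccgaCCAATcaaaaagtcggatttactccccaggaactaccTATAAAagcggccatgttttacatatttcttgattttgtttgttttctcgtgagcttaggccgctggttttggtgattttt
H2AC20, chr1:149886668-149886967, plus strand: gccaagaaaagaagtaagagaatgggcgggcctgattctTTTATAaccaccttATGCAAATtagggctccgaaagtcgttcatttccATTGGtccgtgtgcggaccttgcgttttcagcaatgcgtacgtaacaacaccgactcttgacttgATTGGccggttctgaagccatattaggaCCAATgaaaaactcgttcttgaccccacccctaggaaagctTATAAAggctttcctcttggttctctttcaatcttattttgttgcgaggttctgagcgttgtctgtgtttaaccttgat
The H2AC20 promoter held 2 TATAAA, 3 CCAAT and 1 ATGCAAAT, and that of H2AC6 held 1, 3 and 1. The H2AC20 sequence spans the whole gap of 235 bases up to the start of H2BC21 on the other strand. Its first TATAAA reads towards H2BC21 and its second towards H2AC20.

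Total counts lay between 71275337 and 144204979 per library, and levels are given as CPM, the counts of a gene per 1000000 counts of its library, on library sizes scaled by TMM. The MSC markers NT5E, THY1, ENG, CD44 and ITGB1 were at 507 to 2720 CPM in all libraries. Among the reported markers of blood, endothelial and epithelial cells, HLA-DRA was at 0 in every library, PTPRC and EPCAM stayed under 1 CPM, CD14 and CDH5 reached 4.8 and 2.98 CPM, and CD34 and PECAM1 reached 19.1 and 19.7 CPM. The replicate 1 libraries stood apart from the others of their group for several members, which is given beside those results. The study lists batch effects from technical issues among its limitations, without naming the libraries concerned. In bulk RNA, fewer cells that express a gene and less of its RNA per cell cannot be told apart.

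Of the 26 genes that were not kept, no library held more than 23 counts. Few counts in poly(A) RNA do not show that a gene was silent. H3C4, H3C14 and H4C7 were at 0 counts in every library, which allows up to 3 counts per library, and 99.2% and 96.6% of the sequence of H3C14 and H3C4 is shared with other annotated sequence, against 2.53% for H4C7. The other genes not kept were H1-1, H1-5, H1-6, H2AC1, H2AC4, H2AC7, H2AC12, H2AC14, H2AC17, H2AC21, H2BC1, H2BC3, H2BC9, H2BC10, H2BC14, H3C7, H3C11, H3C15, H4C1, H4C2, H4C6, H4C13 and H4C14. Just inside the threshold were H4C15, with at least 10 counts in 5 libraries (0 to 37 counts), and H3C13, in 6 libraries (0 to 16). Just outside it were H1-5, in 3 libraries (1 to 23 counts), and H4C2 and H2AC14, in 2 libraries each. Of the 41 members, 34 had 10 counts in 4 libraries of each MmC arm. The MmC+ libraries alone carried H3C13, H4C15, H2BC26, H4C4 and H2BC7 past the threshold, and the MmC- libraries alone H3C3 and H3C12, so these 7 genes were kept through the arm in which they were counted more.

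**Figure D1:**
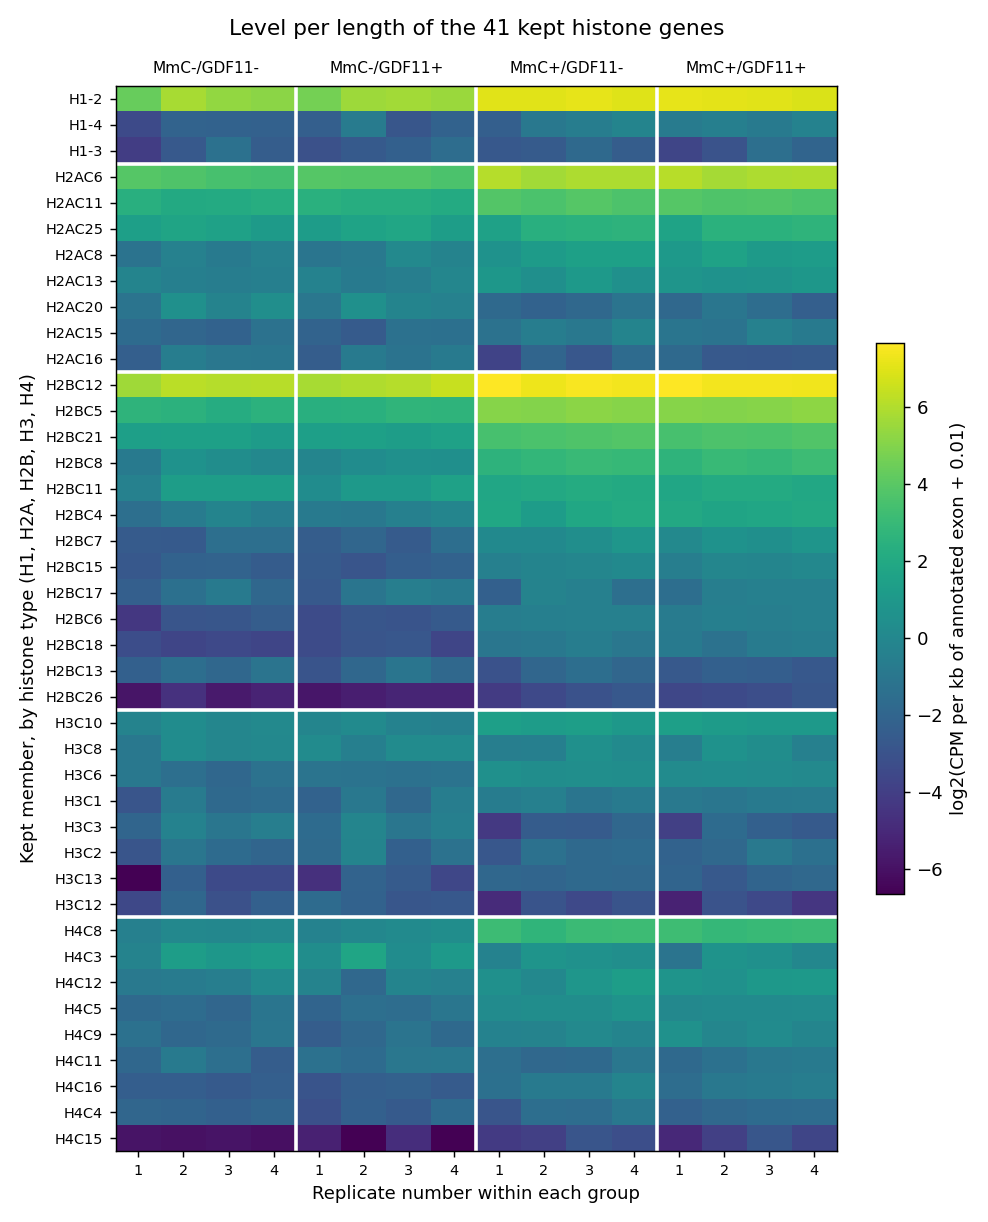
Level of each of the 41 kept genes (rows, grouped by histone type and ordered by mean) in each of the 16 libraries (columns, replicates 1 to 4 of the 4 groups), as log2 of CPM per kb of annotated exon plus 0.01. H2BC12 and H1-2 stand above the other rows in every group, and most bright rows are brighter in the 8 MmC+ columns.

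The levels of the members in the poly(A) RNA were very unequal. They rank the RNA that poly(A) selection recovered. The stem-loop form, recovered less readily, was not measured apart, so the ranking need not hold for all RNA of these genes. To compare genes, CPM was divided by the annotated exon length in kb (CPM per kb). H2BC12, an H2B gene, had the highest mean, at 120.7 CPM per kb, followed by the linker histone gene H1-2 at 85.0, the H2A gene H2AC6 at 36.4, the H2B gene H2BC5 at 19.9 and the H2A gene H2AC11 at 9.08. This order of the first 5 was the same in each of the 4 groups. It rests on the annotated exon lengths, which were 495 bases for H2BC12, 731 for H1-2 and 1668 for H2AC6. In CPM these genes were close and in another order (59.7, 62.2 and 60.7). Whether reads covered the whole annotated length was not analysed here. H2BC12, H1-2 and H2AC6 together made up 74.3% to 79.5% of the summed CPM per kb of the members in every library. The genes below them were at low levels, and the lowest of the kept members, H4C15, was at 0.0417 CPM per kb. The difference between H2BC12 and H1-2 in MmC-/GDF11- (64.5 ± 10.8 against 38 ± 14.4 CPM per kb, SD, n = 4) was larger than the spread, as the ranges of mean ± SD did not overlap. In CPM they did overlap (31.95 ± 5.33 against 27.78 ± 10.5). Sequence shared with other annotated genes limits the assignment of reads to single members: 71% of the 31-base words of H2BC12 occur elsewhere, against 0.71% for H1-2 and 1.87% for H2AC6.

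After MmC, most members of these groups were counted more, not less. Without GDF11, 27 of the 40 tested members rose, 3 fell and 10 did not pass the test (edgeR quasi-likelihood test, Benjamini-Hochberg adjusted p under 0.05). Over all 19103 genes, 22.9% were called higher and 22.4% lower. The median log2 fold change of the members was 1.36, against -0.01 over all genes. The 4 MmC+ libraries were all above the 4 MmC- libraries for 24 members and all below for 1, against 19.1% and 18.2% of all genes. With GDF11, 27 members rose and 4 fell, against 23.4% and 23.3% of all genes, with a median of 1.38 against -0.01. There the libraries did not overlap for 24 members in the higher and 3 in the lower direction, against 20.2% and 21.2% of all genes. All 27 genes that rose and the 3 that fell without GDF11 were also called in the same direction with GDF11. That contrast compares other libraries, but both contrasts share the same fit and the same choice of members over all 16 libraries. Same-numbered MmC+ libraries with and without GDF11 also deviated together, so the comparisons are not independent. Among the 34 members with 10 counts in 4 libraries of each arm, 24 rose and 2 fell in either comparison.

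The summed level of the members was higher as well. The summed CPM of the 41 members was 114 ± 17.4 (SD, n = 4) in MmC-/GDF11- and 412 ± 24.4 in MmC+/GDF11-, a 3.61-fold difference. With GDF11, the sums were 122 ± 14.9 and 415 ± 18.2, a 3.4-fold difference. The lowest MmC+ library was at 376 CPM and the highest MmC- library at 135, so the sums did not overlap. Sums over chosen genes are given as a description, with no test.

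**Figure D2:**
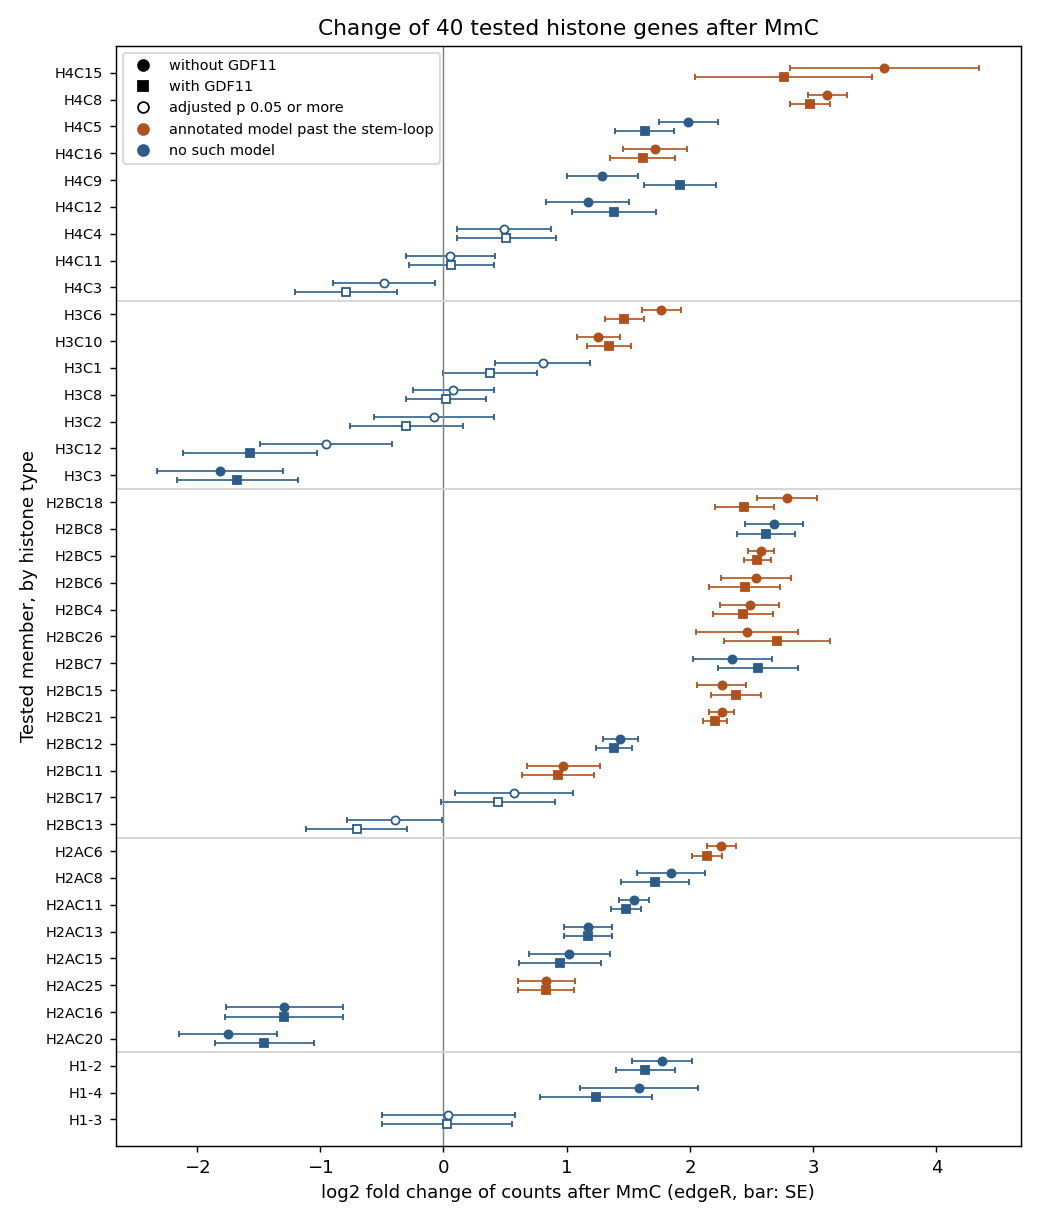
Log2 fold change of counts after MmC for the 40 tested members, grouped by histone type, without (circles) and with GDF11 (squares), with the standard error as a bar; open symbols have an adjusted p of 0.05 or more, and colour marks genes with an annotated transcript model past the stem-loop. The H2B genes lie mostly between 2 and 3, the H3 genes spread on both sides of 0, and all 15 genes with a longer model lie above 0.

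The counts of the linker histone genes in the poly(A) RNA were dominated by H1-2, which encodes an H1 subtype found in most somatic cells. H1-2 was at 14.7, 40.2, 30.1 and 26.1 CPM (replicates 1 to 4) in MmC-/GDF11- and at 94.6, 93.2, 101 and 91.7 CPM in MmC+/GDF11-. With GDF11 it was at 18.4, 33.9, 36.8 and 33.0 CPM before and at 102, 99.8, 96.0 and 83.0 CPM after MmC. Every MmC+ library was at least 2 times as high as any MmC- library, and replicate 1 was the lowest of the MmC- libraries in both groups. H1-2 rose by a log2 fold change of 1.78 ± 0.24 (SE, edgeR adjusted p = 3.95e-05) without GDF11 and of 1.64 ± 0.24 (adjusted p = 7.51e-05) with it. When replicate 1 of every group was left out, a setting chosen after seeing the data, the values were 1.57 and 1.43. H1-4 also rose, by 1.59 without and 1.24 with GDF11 on the log2 scale, from a mean of 0.144 CPM in MmC-/GDF11-. The third tested linker gene, H1-3, was at 0.147 ± 0.111 CPM before and 0.150 ± 0.0499 CPM after MmC and was not called.

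Among the H2A genes, 6 of 8 rose and 2 fell in both comparisons, with none uncalled. H2AC6 was at 24.4, 21.6, 19.1 and 17.5 CPM in MmC-/GDF11- and at 110, 85.6, 100.0 and 98.2 CPM in MmC+/GDF11-. In MmC-/GDF11+ it was at 24.7, 23.5, 23.3 and 19.9 CPM, and in MmC+/GDF11+ at 115, 88.4, 97.5 and 102 CPM. The groups with and without MmC lay far apart, and the log2 fold changes were 2.25 ± 0.12 (edgeR adjusted p = 2.52e-09) and 2.14 ± 0.12 (adjusted p = 4.43e-09). H2AC11, at chr6:27133043-27133535 and with the mixed stem-loop shown above, was at 2.05 to 2.53 CPM in MmC-/GDF11- and at 5.98 to 7.27 CPM in MmC+/GDF11-. It rose by 1.54 ± 0.12 without GDF11 (edgeR adjusted p = 1.59e-07) and by 1.48 ± 0.12 with GDF11 (adjusted p = 2.29e-07).

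H2AC25, the H2A gene of the small cluster on the long arm of chromosome 1, did not form such tight groups. Its MmC- libraries without GDF11 were at 4.98, 6.14, 5.30 and 4.15 CPM, and the MmC+ libraries at 5.43, 9.59, 10.6 and 11.1 CPM. Replicate 1 of MmC+/GDF11- lay inside the range of the MmC- libraries, and replicate 1 of MmC+/GDF11+ did as well, at 5.88 CPM against 4.46, 5.87, 6.58 and 4.65 CPM in MmC-/GDF11+. The rise was called all the same, at 0.83 ± 0.23 in both comparisons (edgeR adjusted p = 0.00779 and 0.00765), and it was 1.00 and 0.93 without replicate 1 of every group. The smaller H2A genes H2AC8, H2AC13 and H2AC15 rose by 1.85, 1.17 and 1.02 without GDF11, from means of 0.147 to 0.366 CPM.

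Most of the H2B genes rose, 11 of 13 in both comparisons, with a median log2 fold change of 2.34 without and 2.43 with GDF11, and none fell. H2BC12 was at 24.3, 36.1, 32.6 and 34.9 CPM in MmC-/GDF11- and at 97.1, 76.5, 89.2 and 83.2 CPM in MmC+/GDF11-. With GDF11 it was at 26.9, 30.5, 33.5 and 42.6 CPM before and at 99.9, 83.5, 83.4 and 81.4 CPM after MmC. The highest member by CPM per kb was thus among those with the smaller rises, 1.44 ± 0.15 without GDF11 (edgeR adjusted p = 1.57e-06) and 1.38 ± 0.14 with it (adjusted p = 2.32e-06). H2BC5 was at 4.05 to 5.43 CPM in MmC-/GDF11- and at 27.8 to 31.2 CPM in MmC+/GDF11-. It rose by 2.58 ± 0.11 (edgeR adjusted p = 1.61e-10) and, with GDF11, by 2.55 ± 0.11 (adjusted p = 1.93e-10), which is 5.97-fold in the first comparison. H2BC4 was at 1.03, 1.78, 2.46 and 1.93 CPM in MmC-/GDF11- and at 10.6, 6.91, 10.5 and 12.3 CPM in MmC+/GDF11-, and rose by 2.48 ± 0.24 (edgeR adjusted p = 1.1e-06).

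H2BC11 had the smallest rise of these H2B genes. It was at 0.793, 2.58, 2.61 and 2.58 CPM in MmC-/GDF11- and at 3.68, 4.14, 4.66 and 4.36 CPM in MmC+/GDF11-. The groups did not overlap, and 3 of the 4 MmC- libraries lay close together while replicate 1 was far below them. The log2 fold change was 0.97 ± 0.29 (edgeR adjusted p = 0.0134) and 0.93 ± 0.29 with GDF11 (adjusted p = 0.0167), and without replicate 1 of every group it was 0.76 (adjusted p = 0.000356) and 0.79 (adjusted p = 0.000251). The remaining H2B genes that rose, H2BC6, H2BC7, H2BC8, H2BC15, H2BC18, H2BC21 and H2BC26, had log2 fold changes of 2.26 to 2.79 without GDF11, H2BC7 and H2BC26 having been kept through the MmC+ libraries alone. H2BC13 and H2BC17 did not pass the test, at -0.40 and 0.57.

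**Figure D3:**
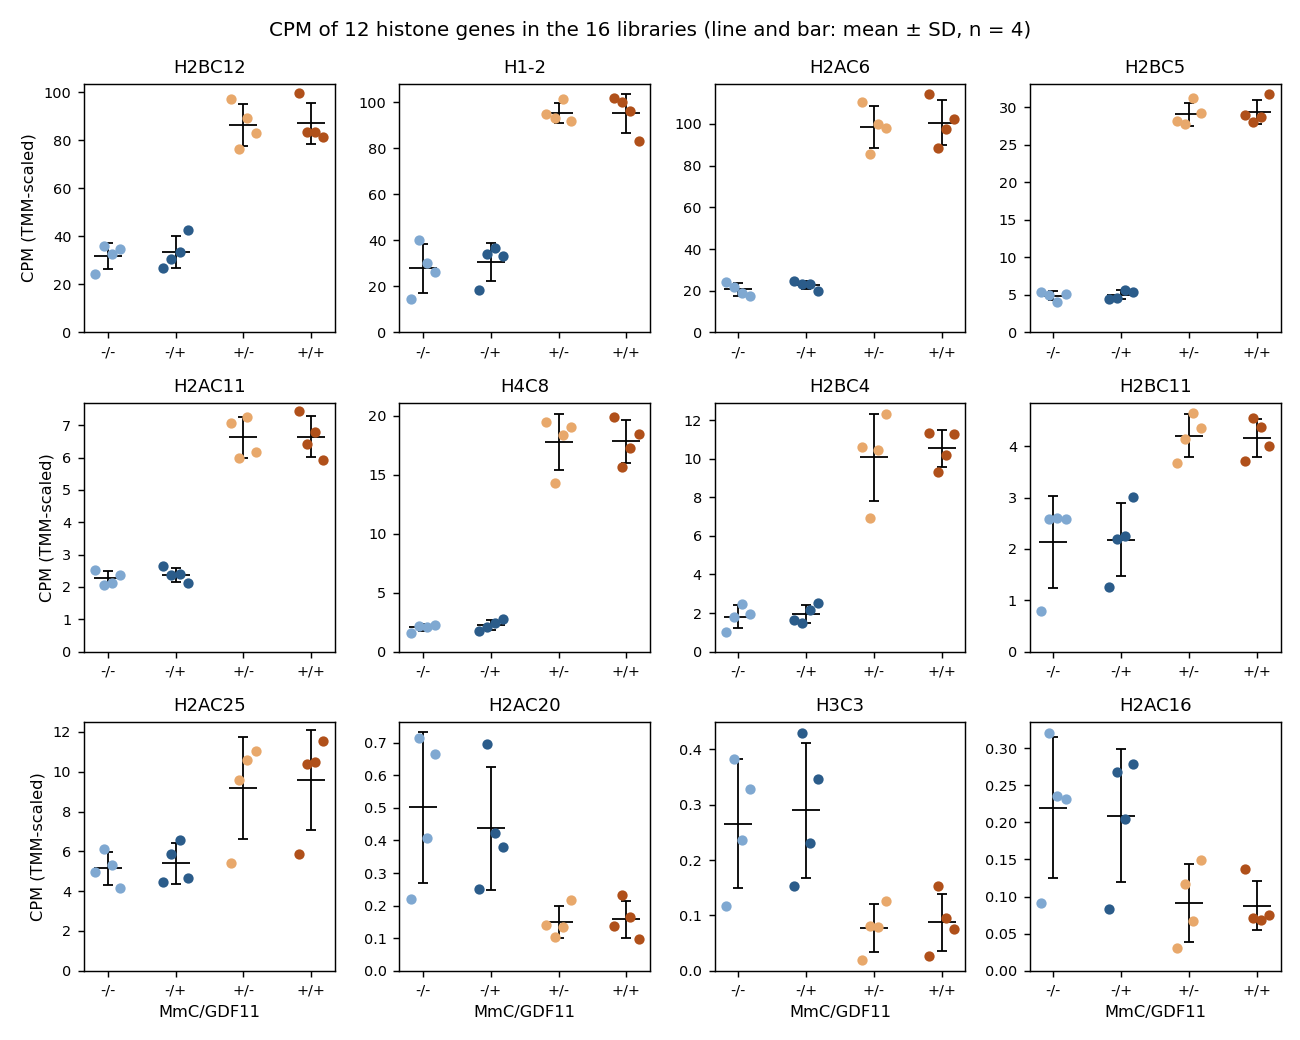
CPM of 12 histone genes in the 4 libraries of each group (points, in replicate order from left to right), with the mean and SD as a line and bar; panels have separate vertical axes that start at 0, and the horizontal axis gives MmC/GDF11. In the panels of H2BC12, H1-2, H2AC6, H2BC5, H2AC11, H4C8, H2BC4 and H2BC11 every MmC+ point is above every MmC- point, whereas H2AC20, H3C3 and H2AC16 have higher means in the MmC- groups.

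The H3 genes lay on both sides of 0. Of 7 tested H3 genes, 2 rose and 1 fell without GDF11, and 2 rose and 2 fell with it, with medians of 0.08 and 0.02. The share that rose, 28.6%, was near the 22.9% and 23.4% of all genes, and the difference between H3 and the other types was not tested. H3C6 and H3C10 rose by 1.77 and 1.26 without GDF11 and by 1.47 and 1.34 with it. H3C1, H3C2 and H3C8 were not called, and H3C8, the highest of these 3, was at 0.461 ± 0.144 CPM in MmC-/GDF11- and at 0.491 ± 0.182 CPM in MmC+/GDF11-. H3C13 was not tested, at 0.0428 ± 0.0383 CPM before and 0.125 ± 0.00744 CPM after MmC. The summed CPM of the H3 members was 2.21-fold higher after MmC without GDF11, and the libraries did not overlap. It was the lowest ratio of the 5 types in CPM and in CPM per kb (1.63-fold), but among members that share under 10% of their sequence H4 was lower (log2 ratio 0.91 against 1.18).

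The H4 genes had the largest rise in summed CPM, from 4.04 ± 0.704 CPM in MmC-/GDF11- to 21.7 ± 2.70 CPM in MmC+/GDF11-, a 5.38-fold difference (5.05-fold with GDF11). This order turned when each gene was divided by its exon length: summed CPM per kb was 2.97-fold higher for H4, 3.08-fold for H2B, 3.41-fold for H1 and 3.6-fold for H2A. Most of the H4 rise in CPM was a single gene, H4C8. H4C8 was at 1.60, 2.21, 2.11 and 2.28 CPM in MmC-/GDF11- and at 19.5, 14.3, 18.4 and 19 CPM in MmC+/GDF11-. With GDF11 it was at 1.75, 2.12, 2.45 and 2.73 CPM before and at 19.9, 15.7, 17.3 and 18.5 CPM after MmC. All MmC+ libraries lay more than 5 times above all MmC- libraries, and the log2 fold changes were 3.11 ± 0.16 (edgeR adjusted p = 1.82e-09) and 2.97 ± 0.16 (adjusted p = 2.74e-09). H4C5, H4C9, H4C12, H4C15 and H4C16 also rose, by 1.17 to 3.58 without GDF11. H4C15 had the highest fitted value of all members but at most 37 counts in a library. It was kept through the MmC+ libraries alone, and 100% of its sequence is shared with H4C14. H4C3, H4C4 and H4C11 were not called, and H4C3 was at 0.752 ± 0.293 CPM before and 0.542 ± 0.157 CPM after MmC. When only members that share under 10% of their sequence with other annotated sequence were summed, which leaves out H4C8, the log2 ratio of the H4 sums fell from 2.43 to 0.91.

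For the other types, the summed CPM after MmC without GDF11 was 3.41-fold higher for H1, 3.95-fold for H2A and 3.47-fold for H2B, and 3.1-fold, 3.71-fold and 3.35-fold higher with GDF11. The libraries of the MmC- and MmC+ groups did not overlap in any of the 5 sums.

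**Figure D4:**
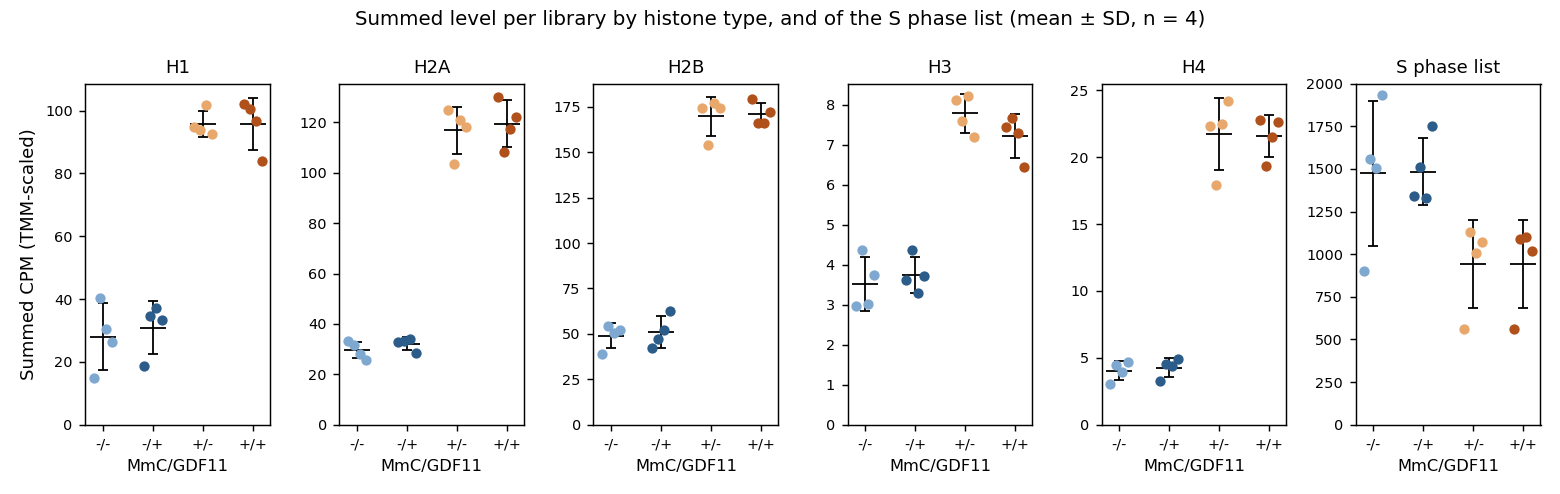
Summed CPM of the members of each histone type, and of a list of 20 S phase genes, in each of the 16 libraries, with the mean and SD of 4 libraries; the vertical axes are separate and start at 0. All 5 histone sums are higher in the MmC+ groups, from 2.21-fold (H3) to 5.38-fold (H4) in CPM without GDF11, while the S phase sum is lower in mean and has its lowest point at replicate 1.

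Few members fell. H2AC20, H3C3 and H2AC16 were lower after MmC in both comparisons, and H3C12 was called with GDF11 only (these 4 genes were chosen after their values were seen). All were at low levels. H2AC20 was at 0.221, 0.714, 0.406 and 0.665 CPM in MmC-/GDF11- and at 0.142, 0.105, 0.134 and 0.219 CPM in MmC+/GDF11-. The libraries did not overlap, but the MmC- libraries varied by more than 3 times among themselves, with replicate 1 the lowest. H2AC20 fell by 1.75 ± 0.40 on the log2 scale (edgeR adjusted p = 0.00224), and by 1.45 ± 0.40 with GDF11 (adjusted p = 0.00722). H3C3 was at 0.117, 0.383, 0.236 and 0.328 CPM before and at 0.0203, 0.0816, 0.0782 and 0.127 CPM after MmC without GDF11, so that 1 library of each group overlapped. It fell by 1.81 ± 0.51 (edgeR adjusted p = 0.00869) and by 1.67 ± 0.49 with GDF11 (adjusted p = 0.0111). H3C3 and H3C12 were kept through the MmC- libraries alone, in which they were counted more, so their lower level after MmC is partly set by that choice.

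H2AC16 fell by 1.29 ± 0.47 without GDF11 (edgeR adjusted p = 0.0351) and by 1.29 ± 0.48 with it (adjusted p = 0.0357). Its call was lost without GDF11 when replicate 1 or 3 of MmC+/GDF11- or replicate 2, 3 or 4 of MmC-/GDF11- was left out (adjusted p up to 0.118), and with GDF11 when replicate 2, 3 or 4 of either group was left out (up to 0.102). H3C12 was lower by a log2 fold change of -0.96 without GDF11 (edgeR adjusted p = 0.156) and fell by 1.57 ± 0.54 with it (adjusted p = 0.0258). The latter call was lost without replicate 1 or 4 of MmC+/GDF11+ or replicate 1 or 2 of MmC-/GDF11+ (adjusted p up to 0.086). Without replicate 1 of every group, H3C12 was not called with GDF11 either (-1.04, adjusted p = 0.0708). Of the 4 genes, the interaction of MmC and GDF11 was called for none.

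The position of the genes was compared next. Most members, 33 of 41, lie in the large cluster on the short arm of chromosome 6, 5 in a cluster on the proximal long arm of chromosome 1, 2 in a cluster on its distal long arm, and H4C16 alone on chromosome 12. In the chromosome 6 cluster 21 of 33 tested genes rose and 2 fell without GDF11, and its summed CPM was 102 ± 16.5 before and 371 ± 24.9 after MmC (3.64-fold). In the proximal cluster of chromosome 1, H2BC18, H2BC21 and H4C15 rose and H2AC20 fell, and the sum was 6.62 ± 0.533 CPM before and 29.7 ± 3.10 CPM after MmC (4.49-fold). In the distal cluster both genes rose, but the sum was 1.85-fold higher with overlapping libraries, 5.22 ± 0.850 CPM before and 9.64 ± 2.76 CPM after MmC. H4C16 rose by 1.72 ± 0.26 on the log2 scale (edgeR adjusted p = 7.35e-05), from 0.435 ± 0.0376 to 1.44 ± 0.489 CPM.

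H2A and H2B genes often start back to back and share the sequence between their starts. In the annotation 12 such pairs had starts 169 to 250 bases apart, and both genes were kept in 7 of them, 1 gene in 3 and none in 2. In 5 of the 7 pairs both genes rose after MmC without GDF11, as in H2BC4 and H2AC6 (2.48 and 2.25), H2BC8 and H2AC8 (2.68 and 1.85), and H2BC11 and H2AC11 (0.97 and 1.54). The pair H2BC21 and H2AC20, whose shared sequence is printed above, moved in opposite directions. H2BC21 was at 5.20 to 6.30 CPM in MmC-/GDF11- and at 25.2 to 32.2 CPM in MmC+/GDF11- and rose by 2.26 ± 0.10 (edgeR adjusted p = 3.94e-10), while H2AC20 fell by 1.75. In the pair H2BC13 and H2AC13, H2AC13 rose by 1.17 and H2BC13 was not called (-0.40). Partners also differed in level in the poly(A) RNA. H2AC6 was 17.2 times as high as H2BC4 in CPM per kb, and H2BC12 was at 120.7 CPM per kb beside a partner, H2AC12, that was not kept and had at most 5 counts in a library.

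**Figure D5:**
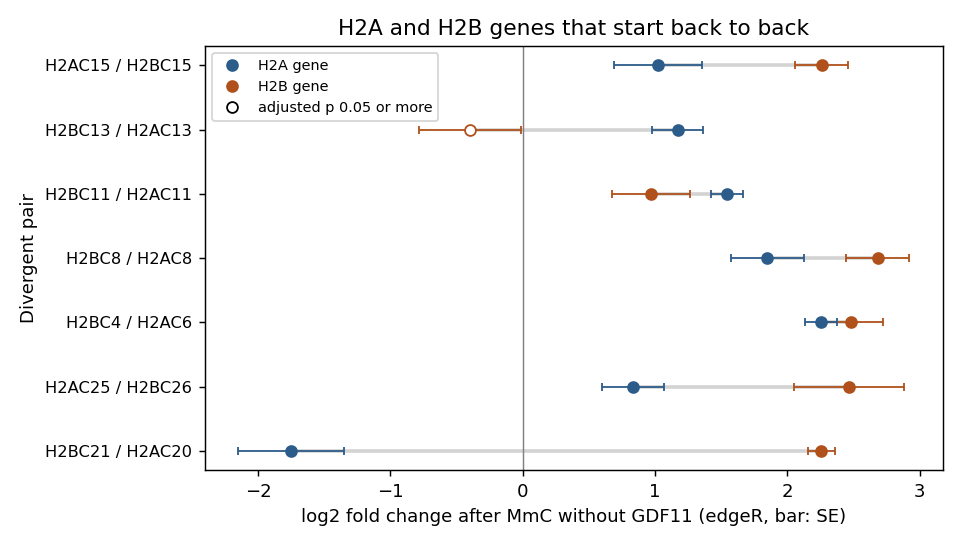
Log2 fold change after MmC without GDF11, with the standard error as a bar, of both genes of the 7 back-to-back pairs of which both genes were kept; blue marks the H2A gene, orange the H2B gene, and an open symbol an adjusted p of 0.05 or more. In H2BC21 and H2AC20 the genes lie on opposite sides of 0 (2.26 and -1.75), and in 5 pairs both genes are to the right of 0 and called.

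GENCODE v44 annotates a transcript that runs more than 50 bases past the stem-loop for 17 of the 67 genes, of which 15 were kept and tested. The counts were made on an earlier release, in which 10 of the 15 genes had another version of their annotation, and whether it held the longer models was not analysed here. All 15 rose after MmC in both comparisons, with log2 fold changes of 0.83 to 3.58 without GDF11 and a median of 2.26. They were H2AC6, H2AC25, H2BC4, H2BC5, H2BC6, H2BC11, H2BC15, H2BC18, H2BC21, H2BC26, H3C6, H3C10, H4C8, H4C15 and H4C16. H4C15 and H2BC26 were kept through the MmC+ libraries alone, and the other 13, with 10 counts in 4 libraries of each arm, rose by 0.83 to 3.11 without GDF11. Of the 25 tested members without such a model, 12 rose and 3 fell without GDF11 and 12 rose and 4 fell with it, with medians of 0.81 and 0.51. Among the 21 of these with 10 counts in 4 libraries of each arm, 11 rose and 2 fell in either comparison. Both H3 genes that rose had a longer model, and none of the genes that fell had one. H1-2, H2BC12, H2AC11 and H2BC8 rose and had none. The genes with a longer model were also at higher levels (median 2.31 against 0.289 CPM), and the 15 members with a mean of at least 1 CPM all rose in both comparisons, so level and annotation were not separated. These means were taken over all 16 libraries. H2BC6, H2BC8 and H2BC15 reached 1 CPM only through the MmC+ libraries (0.310, 0.543 and 0.811 CPM in MmC-/GDF11-). Their place among these 15 members, all of which rose, is thus partly set by that choice. Whether reads fell on the extended parts was not analysed here, because the counts are per gene.

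For GDF11, the members gave no call. In young MSCs 0 of 40 members passed the test at an adjusted p under 0.05 (edgeR), 0 had an unadjusted p under 0.05 and 0 had groups that did not overlap, where the shares over all genes were 0%, 1.18% and 0.89%. DESeq2 also called 0 members. The log2 fold changes lay between -0.29 and 0.69, with a median of 0.08 against 0.00 over all genes. H2AC6 had the largest value among members with a mean log2 CPM of at least 1, 0.15 ± 0.12 (edgeR unadjusted p = 0.22). The summed CPM of the members was 1.07-fold higher with GDF11, and the libraries overlapped.

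In senescent MSCs 0 members were called (edgeR and DESeq2) and 0 had an unadjusted p under 0.05, against 0% and 0.503% of all genes. The log2 fold changes lay between -0.49 and 0.36, with a median of 0.01 against 0.00 over all genes. H2AC25 was the largest among the more highly counted members, at 0.07 ± 0.23. Groups did not overlap for H3C6 and H4C5, both lower with GDF11, against 0.503% of all genes. H3C6 was at 3.85, 3.41, 3.63 and 3.38 CPM without and at 3.21, 3.36, 3.17 and 2.80 CPM with GDF11, a log2 fold change of -0.19 that did not pass the test (edgeR unadjusted p = 0.239). The interaction of MmC and GDF11 was called for 0 members, with 0 at an unadjusted p under 0.05, against 0% and 0.9% of all genes, and its values lay between -0.82 and 0.63. These results do not show that GDF11 has no effect on a member, and the standard error of H1-2 was 0.24 in either comparison.

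Genes that act on histone mRNA and histone supply were counted from lists chosen with earlier results of these data known. Over all genes, 22.9% rose and 22.4% fell after MmC without GDF11, and 23.4% and 23.3% with it. Of 13 genes for transcription and 3' end processing of histone mRNA, 1 rose and 3 fell after MmC without GDF11 (median -0.17). ZNF473, a partner of the U7 particle, rose by 0.48, and SRRT (-0.59) and NCBP1 (-0.33), which act with the cap-binding complex, and LSM10 (-0.32), a subunit of the U7 particle, fell. SLBP, which is named outside the rule after its value was seen, was at 63.6 ± 9.09 CPM before and 56.4 ± 10.8 CPM after MmC and was not called (-0.17, edgeR adjusted p = 0.351). Of 8 genes for histone mRNA decay, the exonuclease gene ERI1 fell by 0.75 and the uridylyltransferase gene TUT7 rose by 0.65. Of 13 genes for the addition of poly(A) tails, 0 rose and 3 fell, namely PABPN1 (-0.59), NUDT21 (-0.51) and CPSF6 (-0.49). With GDF11 the counts were 1 higher and 4 lower, 1 higher and 2 lower, and 0 higher and 4 lower. The shares that fell in these 3 lists were 12.5% to 23.1% without GDF11, near or below that over all genes. With GDF11 they were 25% (2 of 8 genes), near the 23.3% of all genes, and 30.8% (4 of 13 genes), above it by few genes.

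Of 11 genes for histone chaperones and supply, 7 fell (63.6%) and 0 rose in each comparison, with a median of -0.57 without GDF11. The 7 genes were not all the same in the comparisons with and without GDF11. Called in both were CHAF1B (-0.83), a subunit of the assembly factor CAF-1, SSRP1 (-0.79), a subunit of FACT, and the H1 and H3 chaperone gene NASP (-0.69). The importin gene IPO4 was called without GDF11 (-0.69) but not with it (-0.345, edgeR adjusted p = 0.296). Its mean was 0.841 CPM in MmC-/GDF11-. Of 20 S phase genes, 8 fell (40%) and 0 rose in both comparisons, among them the cyclin gene CCNA2 (-2.39), the thymidine kinase gene TK1 (-1.72), the proliferation marker MKI67 (-1.70) and the helicase subunit gene MCM6 (-1.38). The summed CPM of this list was 902 to 1932 in MmC-/GDF11-, 1328 to 1750 in MmC-/GDF11+, 561 to 1130 in MmC+/GDF11- and 560 to 1104 in MmC+/GDF11+. Its lowest libraries within the MmC-/GDF11- and both MmC+ groups were the replicate 1 libraries, and replicate 1 of MmC-/GDF11- was also the lowest of its group in the sum of the histone members (92.8 CPM against 113 to 135). In the MmC+ groups it was not: replicate 1 had a histone sum of 424.6 CPM in MmC+/GDF11- (376.5 to 430.5 in the others) and, at 441.8 CPM, the highest of MmC+/GDF11+ (401.6 to 409.0 in the others). The part of the S phase list in these differences was not tested. GDF11 gave 0 calls in all 5 lists in young and in senescent MSCs.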

How the data were processed

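Reads of 16 poly(A) RNA libraries were aligned by the authors with HISAT2 2.2.1 (build hg38), who deposited raw counts per GENCODE gene from featureCounts 2.0.1. The kit was directional, but the settings for strand, read pairs and reads with several alignments are not given in the sources used here. Groups and replicate numbers came from the sample titles. The members and lists were chosen with earlier results of these data known.

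Counts were fitted in R 4.3.3 with edgeR 4.0.16 (filterByExpr with minimum count 10 and minimum total 15, TMM, robust quasi-likelihood fit over all 16 libraries, 1 mean per group, Benjamini-Hochberg threshold 0.05). Standard errors were derived from the test, as the absolute log2 fold change divided by the square root of its F value. The procedure was tried on simulated counts, with changes only in genes above 1 CPM and no effects shared by replicate. That trial does not cover the 25 of 40 tested members with a mean under 1 CPM. CPM per kb used the union of exons in GENCODE v44, a later release than the authors', which matched 60507 of 60649 identifiers. Shared sequence is the share of 31-base words found in other annotated genes or 261 alternate contigs. Values in every library were given for the 5 members highest per length, for the 3 highest and 3 lowest changes after MmC among called members without overlap and with mean log2 CPM not under 1, and for the largest change with GDF11. Up to 4 called genes per list were named by size of change. 1 of the cell type markers chosen is not reported here.

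Alternatives were RLE scaling, total counts, other filters, only the libraries compared, limma-voom (limma 3.58.1), DESeq2 1.42.0, a replicate block, single libraries left out, and members with under 10% shared sequence. Same-numbered libraries deviated together for MmC without GDF11 (correlations 0.113 to 0.368) and for GDF11 in senescent MSCs (0.448 to 0.818), and were taken as paired there. The correlations were positive as well for MmC with GDF11 (0.0293 to 0.311) and for GDF11 in young MSCs (0.0982 to 0.504). The p-values of the main fit ignore any pairing, which enters only in the replicate block. No 2 libraries of a group agreed within sampling noise. The study calls the libraries of a group biological replicates, all of 1 cell line, so p-values measure the spread between replicates of that line.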

Additional observations from a re-analysis of the deposited data

Results flagged for a closer look

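Of 92 groups of 4 libraries examined, 5 held a library far from the other 3, and chance flags about 1 group in 20. H2BC12 was at 99.86 CPM in replicate 1 of MmC+/GDF11+, above 81.42 to 83.49 CPM in the others. H2BC11 was at 0.7926 CPM in replicate 1 of MmC-/GDF11-, below 2.577 to 2.608 CPM in the others. H2AC16 was at 0.1367 CPM in replicate 1 of MmC+/GDF11+, above 0.06819 to 0.07468 CPM. The summed H2B level was 153.7 CPM in replicate 2 of MmC+/GDF11-, below 174.2 to 177.1 CPM in the others. The summed level of the chromosome 6 cluster was 408.0 CPM in replicate 1 of MmC+/GDF11+, above 359.8 to 367.6 CPM. Replicate 1 supplied 4 of these 5 libraries, and its part in the results was measured by leaving it out of every group.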

How the results depend on the processing

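Leaving out single libraries gave 28 to 31 called members for MmC without GDF11 and 28 to 31 with it. The counts fell where the alternative itself kept fewer members: requiring at least 10 counts in every library left 20 members, of which 18 rose and 0 fell in both comparisons, and members with under 10% shared sequence numbered 18, of which 11 rose and 1 fell, 12 called in each. With that last choice the log2 ratio of the summed H2B level was 1.52 without and 1.50 with GDF11, and that of H4 was 0.91 and 0.68. The H2B ratio then rests on H2BC8 and H2BC11 alone, as H2BC12, H2BC5 and H2BC21 were left out. These remaining genes had means of 0.543 and 2.14 CPM in MmC-/GDF11-, against 49.0 CPM for the sum of all H2B members. With the replicate block, for which the libraries count as paired in MmC without GDF11, 31 members were called there, 32 for MmC with GDF11 and 0 for GDF11, so the block changed no count by more than 1.5 times. GDF11 and the interaction stayed at 0 called members under every alternative run. Single values were followed for the members picked for values by the rule above and for those called lower. None of these changed direction under any alternative run, and 18 values lost their call, all of H2AC16 (adjusted p 0.0583 to 0.118) or H3C12 (0.0559 to 0.086). Calls of the other members are given by number only. Without replicate 1 of every group, 27 members rose and 3 fell without GDF11, as in the main fit. With GDF11, 26 rose and 3 fell, against 27 and 4 in the main fit. The causes were not tested. Members under 1 CPM rest on few reads.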
